A study of Mus musculus with 24 samples.

Results

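The 46 transcripts described here encode the machinery that brings newly made proteins to the endoplasmic reticulum (ER), moves them into or across its membrane and attaches N-linked glycans to them. They were chosen by gene symbol from a list of gene functions, with no measured value in the rule, but with earlier results of these data known. They are 46 of the 12759 transcripts listed in at least 1 count table. All 46 passed the filter on low counts in every comparison. The measurements were made in N2a cells, a mouse neuroblastoma line, by RNA-seq, which measures mRNA, and by ribo-seq, which sequences the mRNA fragments protected by ribosomes (footprints). Ctrl cells had been transfected with empty vector, and KO cells with a vector carrying guide RNAs against Eif4e3, followed by antibiotic selection. Eif4e3 encodes eIF4E3, a cap-binding translation initiation factor. The labels call the ctrl genotype WT, and whether the KO cells derive from a single clone is not given in the sources used here. Cells of either genotype received 250 nM Torin1, an inhibitor of the kinase mTOR, or an equal volume of its solvent DMSO for 2 h. This gives 4 conditions, ctrl DMSO, ctrl Torin1, KO DMSO and KO Torin1, with 3 replicates of each in RNA-seq and, for all but ctrl DMSO, in ribo-seq. Ctrl DMSO has ribo-seq replicates 1 and 3, and its replicate 2 was not analysed here.

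A protein destined for secretion or for a membrane carries a hydrophobic signal that the signal recognition particle (SRP) binds as it leaves the ribosome. The SRP receptor then hands the ribosome to the Sec61 channel, where the chain is threaded into the ER, the signal peptidase cuts off the signal, and the oligosaccharyltransferase transfers a preassembled glycan from the lipid dolichol to asparagine residues. The glycan itself is built sugar by sugar on dolichol by the ALG enzymes. mTOR controls cap-dependent initiation through the 4E-BPs, which sequester eIF4E1 when mTOR is inhibited, and the study asked which transcripts depend on eIF4E3 under that stress.

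The RNA-seq libraries held 17047795 to 28910907 counts and the ribo-seq libraries 669010 to 5284909, the lowest being ctrl DMSO replicate 3, where the sparsest of the 46 transcripts, Alg14, had 16 footprints. Eif4e3 mRNA was at 12.0 to 18.2 CPM (counts scaled to library size) in the 6 ctrl libraries and at 2.88 to 5.04 in the 6 KO libraries, and its footprints at 11.6 to 22.0 CPM in ctrl and 2.29 to 6.61 in KO, so that the genotypes did not overlap in either assay. All 12 neuroblastoma markers were detected, with summed mRNA levels of 3729 to 4737 CPM over the 12 libraries. Their levels were uneven, with Chgb at 1357 to 1965 CPM and Tubb3 at 925 to 1547. Th was at only 4.29 to 6.64 CPM and Gata3 at 5.3 to 13.5. Of the markers of fibroblasts, immune, epithelial, endothelial and glial cells, 1 or 2 per cell type were listed, with sums of at most 4.58 CPM, and Col1a1, Ptprc, Epcam, Cdh5 and Gfap were not among them. Values are scaled by TMM, which sets the typical transcript to no change. Without it, the median log2 footprint change of all transcripts with Torin1 was 0.23 for ctrl and 0.26 for KO, and the median log2 TE change 0.15 and 0.22, so every change with Torin1 is relative to the typical transcript. The comparisons share libraries and are not independent of each other.

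In ctrl DMSO cells the levels per kilobase of coding sequence (CDS) differed widely among the 45 transcripts whose identifier is in the annotation. Sec61g, the smallest Sec61 subunit, had the most footprints, at 1568 CPM per kilobase, and Alg9, a mannosyltransferase, the fewest, at 20.4. Translational efficiency (TE), the ratio of footprint CPM to mRNA CPM, was high for the group: its median was 1.70 against 0.941 for 10401 transcripts, and 37 of 46 lay above the median of all. In KO DMSO 41 of 46 lay above it, in ctrl Torin1 and in KO Torin1 30 each. The median percentile of the 46 among all transcripts was 79.9 in ctrl DMSO, 78.5 in ctrl Torin1, 87.0 in KO DMSO and 65.6 in KO Torin1. Spcs3, a subunit of the signal peptidase, had the highest TE of the 46 in all 4 conditions, at 7.89 in ctrl DMSO and 5.46 in KO Torin1. The lowest was Dpagt1 in ctrl DMSO (0.646), Srp68 in KO DMSO (0.638), Ncln in ctrl Torin1 (0.278) and Nomo1 in KO Torin1 (0.155).

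The 46 took a smaller share of the library with Torin1 in footprints and, by a smaller step, in mRNA. Of the counts of an RNA-seq library they took 0.638% to 0.679% with DMSO and 0.617% to 0.632% with Torin1, with no overlap between the treatments. In ribo-seq their share was 0.921% and 1.00% in ctrl DMSO, 1.03% to 1.07% in KO DMSO, 0.772% to 0.805% in ctrl Torin1 and 0.705% to 0.718% in KO Torin1. The footprint share was also lower in each Torin1 library than in each DMSO library, and among the Torin1 libraries it was lower in each KO than in each ctrl library. A share of a library cannot tell fewer footprints per cell from more footprints on other transcripts.

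With Torin1, few mRNAs of the group passed the test. In ctrl cells 0 of 46 passed edgeR's quasi-likelihood test at an adjusted p under 0.05, where 2.73% of all transcripts passed in either direction. Of the 46, 12 had an unadjusted p under 0.05 and DESeq2 called 2, against 2517 and 723 of 10958 transcripts. With the replicate number as a block 4 passed, all lower: Dad1 (log2 change -0.50), Ostc (-0.46), Tmem147 (-0.44) and Alg3 (-0.41). Of all 10958 transcripts 1331 passed with the block, 351 of them lower. Without ctrl DMSO replicate 3 the count was 8, against 1465 of 10988 transcripts. In KO cells only Ostc passed, against a background of 9.97%, with a log2 change of -0.34 ± 0.08 (SE, n = 3 per condition, edgeR adjusted p = 0.0188). With the block Ssr2 (-0.26) and Sec62 (0.23) passed as well, where 1797 of 11004 transcripts did. Without KO DMSO replicate 1, KO Torin1 replicate 2 or KO Torin1 replicate 3 no member passed. Without KO DMSO replicate 2 the count was 3, against 1465 of 11034 transcripts, and without KO DMSO replicate 3 it was 2, against 1275 of 11052. The median log2 change of the 46 mRNAs was -0.15 in ctrl and -0.10 in KO, against 0.00 and -0.00 for all transcripts.

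Footprints fell for much of the group. In ctrl cells 18 of 46 fell and 1 rose, against 9.93% of all transcripts lower and 5.69% higher. The median log2 change was -0.37, against 0.02 for all transcripts. In KO cells 34 of 46 fell and 0 rose, against 22.1% lower and 18.5% higher, and the median was -0.68, against 0.02. DESeq2 called 0 of the 46 higher there too. In ctrl 8 members passed when DMSO replicate 1 was dropped, 9 when Torin1 replicate 3 was and 11 when Torin1 replicate 2 was, with all-transcript counts of 725, 846 and 870 in place of 1670. Without scaling beyond library size ctrl had 10 members lower and 2 higher, and KO had 26 lower and 1 higher, while the share of lower calls among all transcripts went from 63.6% to 28.8% in ctrl and from 54.5% to 28.9% in KO.

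**Figure D1:**
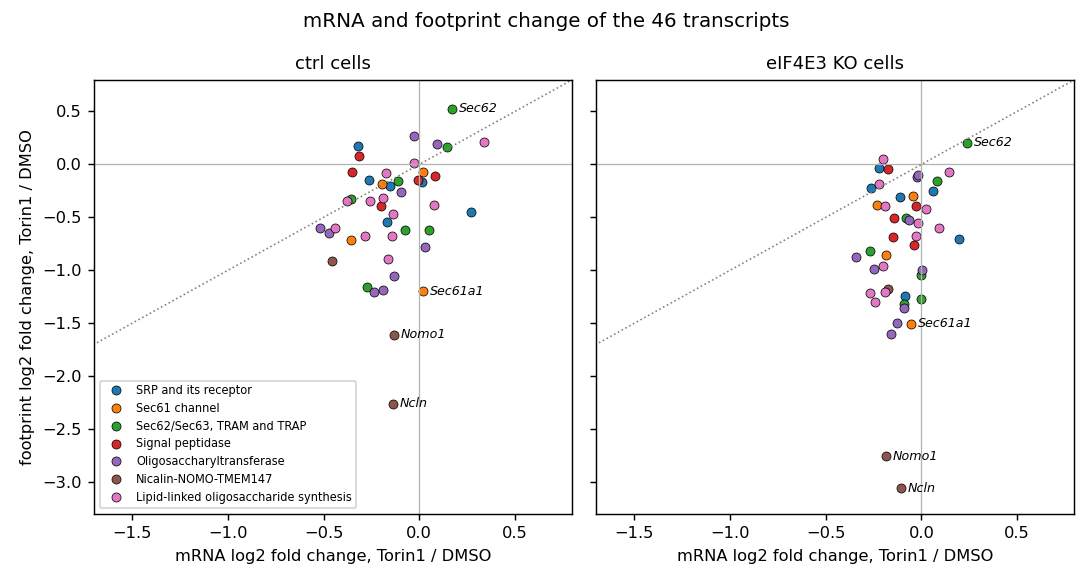
Log2 change with Torin1 in mRNA (horizontal axis) and in footprints (vertical axis) for the 46 transcripts, in ctrl cells (left) and KO cells (right), coloured by role, where the dotted line marks equal change. Most points lie below the line near a zero mRNA change, with Ncln and Nomo1 lowest, at -2.26 and -1.61 in ctrl and -3.06 and -2.75 in KO for footprints, and Sec62 highest, at 0.53 in ctrl and 0.20 in KO.

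TE was tested as the assay by treatment term of a model over both kinds of library. In ctrl cells 9 of 46 fell and 0 rose, against 4.32% of all transcripts lower and 0.393% higher, and in KO cells 30 fell and 0 rose, against 17.8% lower and 10.5% higher. DESeq2 gave 9 and 31, again all lower. The median log2 TE change was -0.17 in ctrl and -0.54 in KO, where all transcripts had -0.01 in both. Without scaling beyond library size the counts were 8 and 21, all lower, while the lower share of calls among all transcripts went from 91.7% to 66.9% in ctrl and from 62.9% to 32.7% in KO. Over all transcripts the TE test called 492 in ctrl and 2981 in KO, in either direction. A call in KO alone therefore does not show that the responses differed, which the interaction given below tested. The role groups are described in turn, with the change in ctrl before that in KO.

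**Figure D2:**
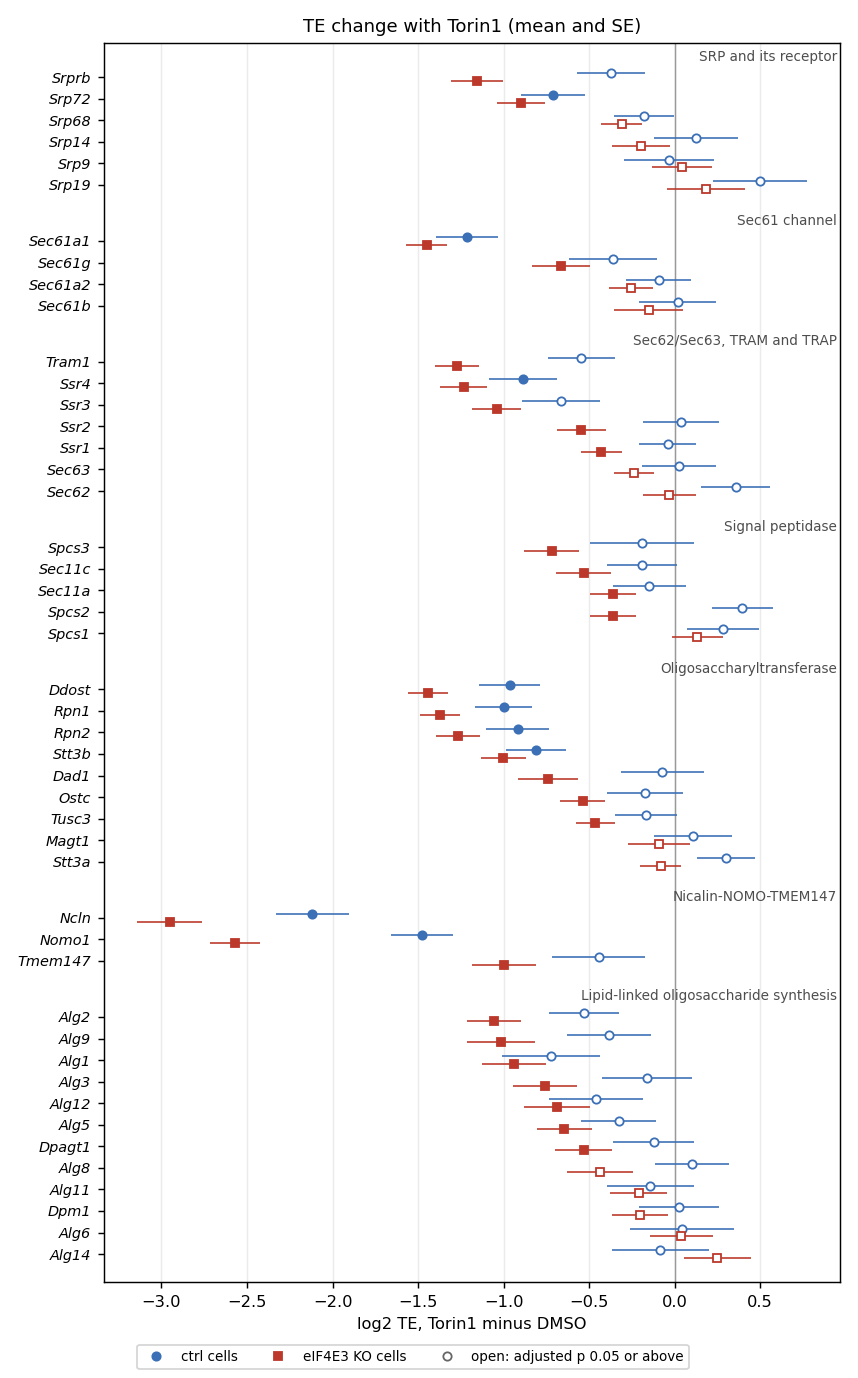
Log2 TE change with Torin1 for each of the 46 transcripts by role, in ctrl cells (circles) and KO cells (squares), with the SE of the fitted change, filled where the adjusted p was under 0.05. Ncln and Nomo1 stand furthest to the left, no filled point lies right of 0, and 30 KO points and 9 ctrl points are filled.

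Of the 6 transcripts for the SRP and its receptor, Srprb and Srp72 fell in TE in KO and Srp72 in ctrl. Srprb encodes the membrane-anchored beta subunit of the SRP receptor and lies on chromosome 9 of GRCm38, from 103188032 to 103202137 on the minus strand. Its footprints were at 132 and 118 CPM in ctrl DMSO, 87.6, 83.7 and 90.2 in ctrl Torin1, 120.5, 121 and 128 in KO DMSO, and 61.2, 46.9 and 49.7 in KO Torin1. Every Torin1 library was below every DMSO library, and every KO Torin1 library was below every ctrl Torin1 library. Its mRNA stayed between 46.9 and 62.9 CPM in all 12 libraries. Its footprints fell in both genotypes, with log2 changes of -0.54 ± 0.15 in ctrl (edgeR adjusted p = 0.0238) and -1.24 ± 0.14 in KO (edgeR adjusted p = 5.48e-09). The ctrl footprint call was lost with DESeq2, without scaling beyond library size (-0.33), and without ctrl DMSO replicate 1, ctrl Torin1 replicate 2 or ctrl Torin1 replicate 3, with changes of -0.60 to -0.44 over the libraries left out. In TE the change was -0.37 ± 0.20 in ctrl, which did not pass, and -1.16 ± 0.15 in KO (edgeR adjusted p = 2.14e-06). A gene annotated as Gm20425 contains the whole Srprb CDS of 807 bases on the same strand, so reads of the 2 genes cannot be told apart.

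Srp72, an SRP protein that binds the particle's RNA together with Srp68, also fell in TE, with log2 changes of -0.71 ± 0.19 in ctrl (edgeR adjusted p = 0.0287) and -0.90 ± 0.14 in KO (edgeR adjusted p = 2.64e-05). The ctrl call did not pass with the replicate block (log2 -0.61) or without scaling beyond library size (-0.55), or when ribo-seq ctrl DMSO replicate 1, ribo-seq ctrl Torin1 replicate 2, or RNA-seq ctrl Torin1 replicate 1 or 2 was left out, with log2 changes of -0.78 to -0.62 over the libraries left out. Srp9, Srp14, Srp19 and Srp68 had TE changes between -0.31 and 0.50 over both genotypes and none passed. With the block, Srp68 passed in KO for footprints (-0.25) and TE (-0.31) and Srp14 for footprints (-0.30).

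Of the 4 Sec61 channel transcripts, Sec61a1 had the largest fall. It encodes the pore-forming alpha subunit and lies on chromosome 6, from 88503579 to 88518905 on the minus strand. Its footprints were at 538 and 472 CPM in ctrl DMSO, 253, 197 and 217 in ctrl Torin1, 497, 551 and 595 in KO DMSO, and 207, 188 and 191 in KO Torin1. The treated libraries lay far below the DMSO libraries in both genotypes, whereas mRNA was between 229 and 262 CPM in every library. Its TE fell, with log2 changes of -1.21 ± 0.18 in ctrl (edgeR adjusted p = 0.000119) and -1.45 ± 0.12 in KO (edgeR adjusted p = 6.31e-10). Sec61g fell in TE only in the KO test, at -0.67 ± 0.17 (edgeR adjusted p = 0.00411) against -0.36 ± 0.26 in ctrl, and Sec61b and Sec61a2 passed in neither genotype. In footprints Sec61g fell in both genotypes, at -0.72 in ctrl and -0.85 in KO, and Sec61b (-0.39) and Sec61a2 (-0.30) fell in KO. The Sec61b and Sec61a2 calls were lost with DESeq2, without scaling beyond library size and without 3 or 4 of the 6 single libraries, with changes of -0.60 to -0.25 for Sec61b, the smallest without KO Torin1 replicate 3 and the largest without KO Torin1 replicate 1. The ctrl call of Sec61g was lost without ctrl DMSO replicate 1 (-0.30), ctrl Torin1 replicate 2 or ctrl Torin1 replicate 3, and without scaling beyond library size (-0.50).

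Among the 7 accessory transcripts, Tram1 and the TRAP subunits fell in TE in KO, and Tram1, Ssr3 and Ssr4 fell in ctrl footprints, while neither Sec62 nor Sec63 had a fall that passed. Tram1, the translocating chain-associated membrane protein, whose gene spans chromosome 1 from 13564698 to 13589910 on the minus strand, had footprints of 148 and 129.7 CPM in ctrl DMSO, 86.8, 102.7 and 85.1 in ctrl Torin1, 165, 163 and 167 in KO DMSO, and 66.5, 74.7 and 66.3 in KO Torin1. KO Torin1 was the lowest condition and KO DMSO the highest, with no overlap between any of the 4. Its TE change was -0.55 ± 0.20 in ctrl, which did not pass, and -1.27 ± 0.13 in KO (edgeR adjusted p = 2.47e-08). The 4 TRAP genes Ssr1 to Ssr4 encode a complex that sits beside the channel and helps open it for some signals. In KO all 4 fell in TE, with log2 changes of -0.43 for Ssr1, -0.55 for Ssr2, -1.04 for Ssr3 and -1.23 for Ssr4, while in ctrl only Ssr4 did, at -0.88 ± 0.20 (edgeR adjusted p = 0.00893). That ctrl call was lost without ribo-seq ctrl DMSO replicate 1, and the log2 changes over the libraries left out were -1.04 to -0.77. Without scaling beyond library size the KO calls of Ssr1 (-0.20) and Ssr2 (-0.32) were lost. In ctrl footprints the log2 changes were -0.62 for Tram1, -0.62 for Ssr3 and -1.16 for Ssr4, and the Ssr4 call was made whichever library was left out. The Tram1 call was lost without ctrl DMSO replicate 1 or ctrl Torin1 replicate 3 (-0.72 to -0.49 over the libraries left out). The Ssr3 call was lost without ctrl DMSO replicate 1 (-0.30), ctrl Torin1 replicate 2 or ctrl Torin1 replicate 3, and neither Tram1 nor Ssr3 passed there without scaling (-0.41 each).

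Ssr2 footprints were at 262 and 191 CPM in ctrl DMSO, 198, 207 and 153 in ctrl Torin1, 235, 221 and 237 in KO DMSO, and 115, 152 and 133 in KO Torin1. Both ctrl conditions overlapped, and KO Torin1 lay below every other library, with 152 against 153 CPM at the closest. Sec62 and Sec63 encode translocation factors used by post-translational substrates. Sec62, named here after the values were seen, was the only member called higher in ctrl footprints, with a log2 change of 0.53 ± 0.15 (edgeR adjusted p = 0.0266), from 190 and 248 CPM in DMSO to 299, 320 and 303 in Torin1. In KO they were at 217, 271 and 186 CPM in DMSO and 269, 285 and 235 in Torin1, and those ranges overlapped. The ctrl rise did not pass when ctrl DMSO replicate 1, ctrl Torin1 replicate 2 or ctrl Torin1 replicate 3 was left out, with log2 changes of 0.32 to 0.70 over the libraries left out, and in TE it did not pass (0.36 ± 0.20). Of the 46, 8 had a footprint change above 0 in ctrl. In 4 of them, Sec62, Magt1, Srp19 and Stt3a, every ctrl Torin1 library was above every ctrl DMSO library, against 20.8% of all transcripts. In 27 of the 46 every ctrl Torin1 library was below every ctrl DMSO library, against 21.9%. Without scaling beyond library size Stt3a (0.48, edgeR adjusted p = 0.0265) passed in ctrl as well, and Sec62 passed in KO (0.45).

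In the signal peptidase group, no member passed in ctrl in footprints or TE, and 4 of 5 fell in KO in both. Of all transcripts, 9.93% were lower in ctrl footprints and 4.32% in ctrl TE, against 22.1% and 17.8% in KO. The interaction of genotype and treatment passed for 0 of the 5 in either measure. Spcs3, an accessory subunit, had footprints of 164 and 157 CPM in ctrl DMSO, 161, 154 and 135 in ctrl Torin1, 224, 222 and 224 in KO DMSO, and 126, 129 and 146 in KO Torin1. The KO DMSO libraries were above all others, and ctrl Torin1 and KO Torin1 overlapped. Its TE change was -0.19 ± 0.31 in ctrl and -0.72 ± 0.16 in KO (edgeR adjusted p = 0.00137). Sec11c, a catalytic subunit, fell in TE in KO with a log2 change of -0.53, and Sec11a, the other catalytic subunit, and Spcs2 with -0.36 each. The TE calls of Sec11a, Spcs2 and Sec11c were lost in 9, 7 and 2 of the 12 runs that left out a library, and all 3 without scaling beyond library size. Spcs1 had TE changes of 0.28 ± 0.21 in ctrl and 0.13 ± 0.15 in KO.

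Of the 9 oligosaccharyltransferase transcripts, 4 fell in TE in ctrl, which were Rpn1, Rpn2, Ddost and Stt3b, and 7 in KO, all but Stt3a and Magt1. Of all transcripts, 4.32% were lower in ctrl and 17.8% in KO. Ddost, a non-catalytic subunit of the shared core, lies on chromosome 4 from 138304730 to 138312628 on the plus strand. It had footprints of 865 and 712 CPM in ctrl DMSO, 358, 335 and 341 in ctrl Torin1, 819.8, 792 and 844 in KO DMSO, and 267, 260 and 296 in KO Torin1. All Torin1 libraries were below all DMSO libraries, and the KO Torin1 libraries were below the ctrl Torin1 libraries. TE fell, with log2 changes of -0.96 ± 0.18 in ctrl (edgeR adjusted p = 0.00147) and -1.44 ± 0.12 in KO (edgeR adjusted p = 6.23e-10). The ribophorins Rpn1 and Rpn2, the other large core subunits, had log2 TE changes of -1.0 and -0.92 in ctrl and of -1.37 and -1.27 in KO, and all 4 values passed. Dad1 and Ostc fell in TE in KO, at -0.74 and -0.54, and had -0.07 and -0.17 in ctrl, which did not pass, although their footprints fell in ctrl, with log2 changes of -0.60 and -0.65. Those ctrl footprint calls were lost without ctrl DMSO replicate 1, ctrl Torin1 replicate 2 or ctrl Torin1 replicate 3, and without scaling beyond library size (-0.39 and -0.43), and that of Dad1 also with DESeq2. Over the libraries left out the Dad1 change was -0.83 to -0.12, the smallest being without ctrl DMSO replicate 1, and the Ostc change -0.75 to -0.52. The TE change of Ostc in KO was -0.31 without scaling beyond library size and did not pass.

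Ncln and Nomo1, of the nicalin complex, had the largest falls of the 46 in footprints and TE with Torin1 in both genotypes. Ncln encodes nicalin, Nomo1 the luminal protein NOMO, and Tmem147 their membrane partner. The complex associates with the Sec61 channel and takes part in making multipass membrane proteins. Ncln lies on chromosome 10 from 81486249 to 81496392 on the minus strand, and Nomo1 on chromosome 7 from 46033698 to 46084212 on the plus strand. Ncln footprints were at 211 and 174 CPM in ctrl DMSO, 44.9, 37.5 and 40.9 in ctrl Torin1, 171, 172 and 215 in KO DMSO, and 18.1, 20.6 and 30.3 in KO Torin1. Nomo1 footprints were at 362 and 394 CPM in ctrl DMSO, 124, 128 and 117 in ctrl Torin1, 407, 408 and 392 in KO DMSO, and 48.9, 61.3 and 72.6 in KO Torin1. For both transcripts the DMSO conditions overlapped, the ctrl Torin1 libraries were well below them, and the KO Torin1 libraries were lower still without overlap.

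Ncln mRNA was at 132 to 179 CPM and Nomo1 mRNA at 364 to 513 CPM over the 12 libraries, and neither passed in any mRNA comparison. TE of Ncln fell, with log2 changes of -2.12 ± 0.21 in ctrl (edgeR adjusted p = 1.36e-06) and -2.95 ± 0.19 in KO (edgeR adjusted p = 5.97e-12), and so did TE of Nomo1, with -1.48 ± 0.18 (edgeR adjusted p = 1.24e-05) and -2.57 ± 0.14 (edgeR adjusted p = 8.10e-13). Expressed as levels, TE of Ncln was at percentile 63.1 of all transcripts in ctrl DMSO and 66.3 in KO DMSO, and at 6.56 in ctrl Torin1 and 3.02 in KO Torin1. Nomo1 was at percentile 41.5 in ctrl DMSO and 46.8 in KO DMSO, and at 7.27 in ctrl Torin1 and 2.60 in KO Torin1. Tmem147 had footprints of 103 and 63.2 CPM in ctrl DMSO, 58.6, 45.3 and 40.3 in ctrl Torin1, 104, 95.8 and 111 in KO DMSO, and 56.8, 48.3 and 31.4 in KO Torin1. The ctrl footprint fall of Tmem147 (-0.91) was lost without ctrl DMSO replicate 1 (-0.41) or ctrl Torin1 replicate 3 (-0.78), and was -1.12 to -0.41 over the libraries left out. Its TE change of -0.44 ± 0.27 in ctrl did not pass and that of -0.999 ± 0.19 in KO did (edgeR adjusted p = 0.000264).

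**Figure D3:**
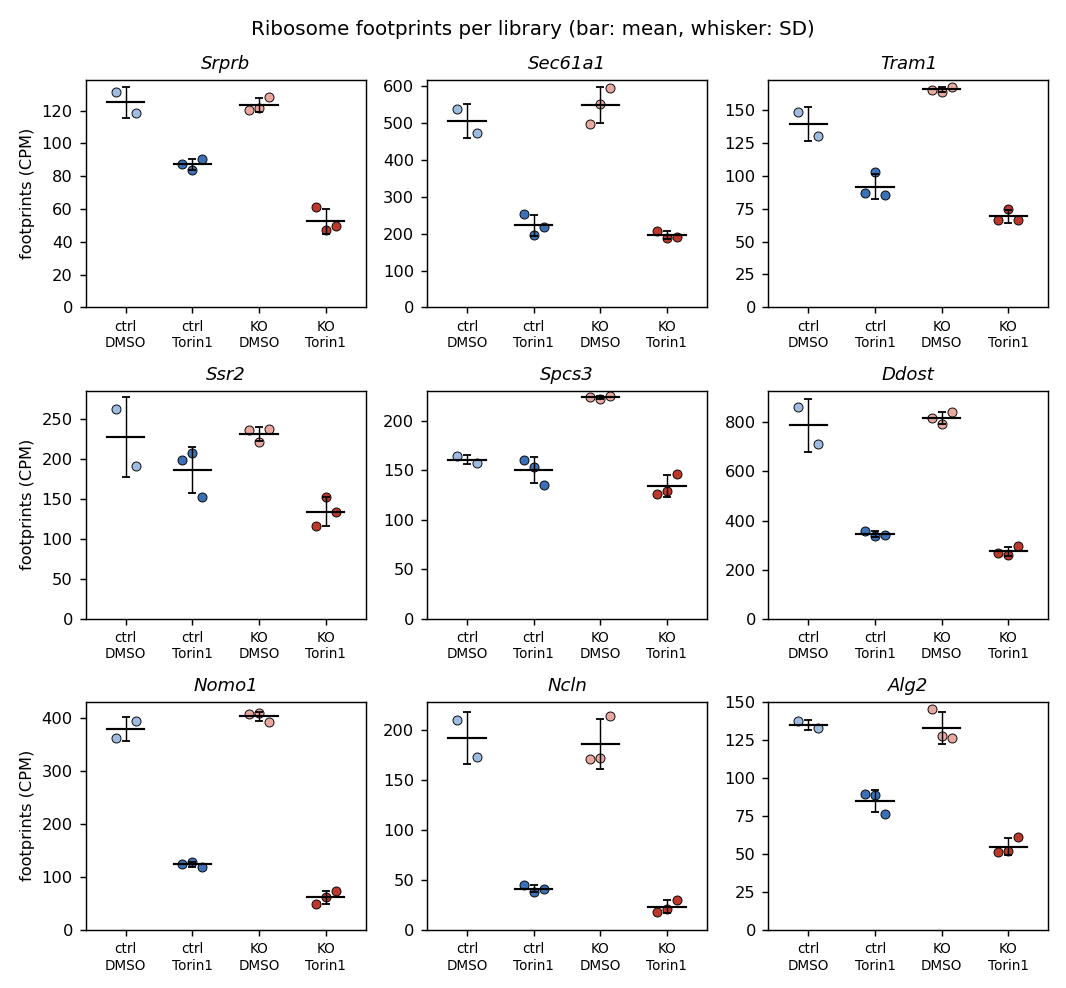
Footprints in CPM, scaled by TMM, in each ribo-seq library for 9 members, with a bar at the mean and whiskers for the SD of the 2 ctrl DMSO libraries or the 3 libraries of each other condition. Nomo1 falls from 362 to 408 CPM in DMSO to 117 to 128 in ctrl Torin1 and 48.9 to 72.6 in KO Torin1, while Spcs3 stays within 135 to 164 CPM in ctrl.

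Of the 12 transcripts for making the lipid-linked glycan, 0 fell in TE in ctrl and 7 in KO. Of all transcripts, 4.32% were lower in ctrl, so 0 of 12 does not set this group apart, and 17.8% in KO. At an unadjusted p under 0.05, 2 of the 12 had a lower ctrl TE, where 1709 of 10432 transcripts had such a p in either direction. Alg2, a mannosyltransferase that adds early mannoses on the cytosolic face of the ER, had footprints of 138 and 133 CPM in ctrl DMSO, 89.7, 88.8 and 76.6 in ctrl Torin1, 145, 128 and 126 in KO DMSO, and 51.1, 52.2 and 61.2 in KO Torin1. The DMSO libraries of ctrl and KO overlapped, and their Torin1 libraries did not. Its footprints fell in both genotypes, with log2 changes of -0.67 ± 0.16 in ctrl (edgeR adjusted p = 0.00622) and -1.30 ± 0.13 in KO (edgeR adjusted p = 1.48e-09), and its TE fell in KO, at -1.06 ± 0.16 (edgeR adjusted p = 1.40e-05). The ctrl footprint call was lost without ctrl DMSO replicate 1 or ctrl Torin1 replicate 3, with changes of -0.72 to -0.60 over the libraries left out. The ctrl TE change was -0.53 ± 0.20 and did not pass. In ctrl footprints Alg1 (-0.90) and Alg3 (-0.60) fell as well, and both calls were lost with DESeq2 and without scaling beyond library size. The Alg1 call was also lost without ctrl DMSO replicate 1 (-0.41) or ctrl Torin1 replicate 2 (-0.74), and the Alg3 call without ctrl DMSO replicate 1 (-0.31) or any ctrl Torin1 library. Over the libraries left out the changes were -1.06 to -0.41 for Alg1 and -0.72 to -0.31 for Alg3.

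The other 6 TE falls in KO were those of Alg9 (-1.01), Alg1 (-0.94), Alg3 (-0.76), Alg12 (-0.69), Alg5 (-0.65) and Dpagt1 (-0.53). Alg1, Alg3, Alg9 and Alg12 are mannosyltransferases, Alg5 makes the glucose donor, and Dpagt1 starts the chain. The calls of Alg12 (-0.46) and Dpagt1 (-0.31) were lost without scaling beyond library size. Alg8, a glucosyltransferase, had -0.44 in TE in KO and passed with the replicate block. Alg6, Alg11, Alg14 and Dpm1 did not pass in TE, with -0.21 to 0.25 in KO and -0.14 to 0.04 in ctrl. Alg2 and Sec61b are neighbours on chromosome 4 of GRCm38, Alg2 at 47469833 to 47474333 on the minus strand and Sec61b at 47474658 to 47483242 on the plus strand, with 324 bases between their starts. Their TE changes in KO were -1.06 ± 0.16 and -0.15 ± 0.20, and Sec61b did not pass.

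Of the 4 paralog pairs, 3 had a footprint ratio whose change with Torin1 passed an exact permutation test. The sign of a change depends only on which paralog is written first. Sec61a2 is the other alpha subunit of the channel, and its footprints were at 184 and 214 CPM in ctrl DMSO, 174, 214 and 169 in ctrl Torin1, 225, 245 and 279 in KO DMSO, and 196, 225 and 196 in KO Torin1. The log2 footprint ratio of Sec61a1 to Sec61a2 lay between 1.09 and 1.55 in the 5 DMSO libraries and between -0.26 and 0.54 in the 6 Torin1 libraries. With Torin1 it changed by a mean log2 of -1.15 over both genotypes (two-sided exact permutation test within genotype, 200 arrangements, p = 0.005, the smallest they can give, Benjamini-Hochberg adjusted p over 8 tests = 0.0133). The mRNA ratio changed by -0.00 (exact permutation p = 0.925).

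Stt3a and Stt3b encode the alternative catalytic subunits of the oligosaccharyltransferase, of which the first works at the channel during synthesis. Stt3a footprints were at 550 CPM in both ctrl DMSO libraries, 563, 725 and 695 in ctrl Torin1, 659, 737 and 810 in KO DMSO, and 758, 654 and 673 in KO Torin1. Stt3b footprints were at 311 CPM in both ctrl DMSO libraries, 153, 197 and 191 in ctrl Torin1, 371, 374 and 403 in KO DMSO, and 187, 171 and 228 in KO Torin1. Stt3b was lower in each Torin1 library than in each DMSO library, which was not so for Stt3a. The log2 footprint ratio of Stt3b to Stt3a changed by -0.98 (exact permutation p = 0.005, adjusted p = 0.0133), with -1.05 in ctrl and -0.90 in KO, and the mRNA ratio by 0.04 (exact permutation p = 0.205).

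Tusc3 and Magt1, the alternative oxidoreductase subunits of the Stt3b form, had a footprint ratio that changed by -0.44 (exact permutation p = 0.005, adjusted p = 0.0133), and an mRNA ratio that changed by -0.13 (exact permutation p = 0.27). Tusc3 fell in TE in KO, at -0.46 ± 0.12 (edgeR adjusted p = 0.00376), and Magt1 had -0.09 ± 0.18. Without scaling beyond library size the Tusc3 change was -0.24 and did not pass. Sec11c and Sec11a, the alternative catalytic subunits of the signal peptidase, had a footprint ratio that changed by -0.24 (exact permutation p = 0.065), and the change ranged from -0.38 to -0.09 over the libraries left out. The Sec11c to Sec11a mRNA ratio changed by -0.15 (exact permutation p = 0.025, adjusted p = 0.05). A ratio within a library does not depend on the scaling, and it shows unequal change without saying which of the pair changed. The ratio of paralogs was added as a test after the values had been seen.

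**Figure D4:**
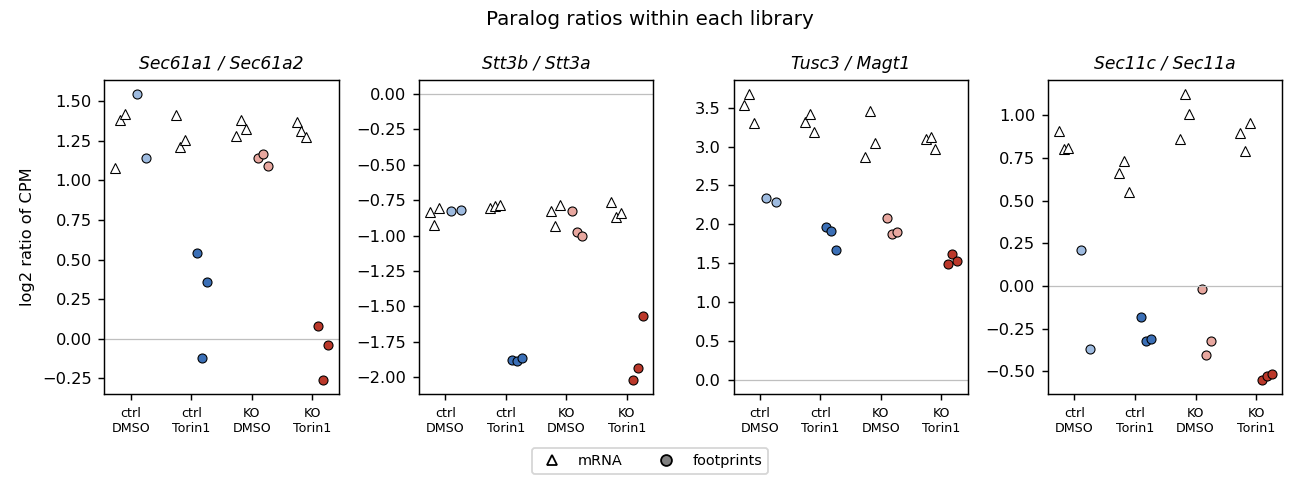
Log2 ratio of CPM between 2 paralogs in each library, for mRNA (open triangles) and footprints (filled circles), over the 4 conditions. The Sec61a1 to Sec61a2 footprint ratio lies at 1.09 to 1.55 with DMSO and at -0.26 to 0.54 with Torin1, while its mRNA ratio stays between 1.08 and 1.42.

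In DMSO, none of the 46 transcripts passed edgeR's quasi-likelihood test between KO and ctrl cells. For footprints 0 of 46 passed, where 0.0279% of all transcripts did, with 0 calls by DESeq2. An unadjusted p under 0.05 was found for 4 of the 46, against 850 of 10757 transcripts. For TE 0 of 46 passed, where 0.0% did, with 0 calls by DESeq2. An unadjusted p under 0.05 was found for 2 of the 46, against 416 of 10475 transcripts. The median log2 TE difference of the 46 was 0.13, against -0.01 for all transcripts, with 36 of 46 above 0. In 11 of the 46 every KO DMSO library had more footprints than every ctrl DMSO library, against 13.4% of all transcripts. In 1 of the 46 every KO DMSO library had fewer, against 12.7%. For mRNA 0 of 46 passed, where 0.0183% did, with 0 calls by DESeq2. An unadjusted p under 0.05 was found for 3 of the 46, against 646 of 10924 transcripts. With the replicate block Ssr4 (-0.37) and Magt1 (0.46) passed in mRNA, with 866 transcripts in all in place of 2.

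In Torin1, a few members were lower in KO than in ctrl and none was higher. For footprints 6 of 46 were lower and 0 higher, against 4.01% of all transcripts lower and 2.02% higher, and 38 of 46 differences were below 0, with a median of -0.17 against 0.00 for all. For TE 5 of 46 were lower and 0 higher, against 2.46% and 0.533%, and 37 of 46 differences were below 0, with a median of -0.20 against -0.01. DESeq2 called 6 lower in footprints and 9 lower in TE, and none higher. With the replicate block 8 passed in each, Rpn1 (-0.29) and Dad1 (-0.44) joining in footprints, and Srp14 (-0.44), Ddost (-0.30) and Tusc3 (-0.35) in TE. For mRNA 1 of 46 passed, where 1.96% did: Ssr4 with -0.21 ± 0.05 (edgeR adjusted p = 0.0465), which did not pass when any of the 6 libraries was left out (log2 -0.21 to -0.20). With the block Magt1 mRNA (0.35) passed as well.

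**Figure D5:**
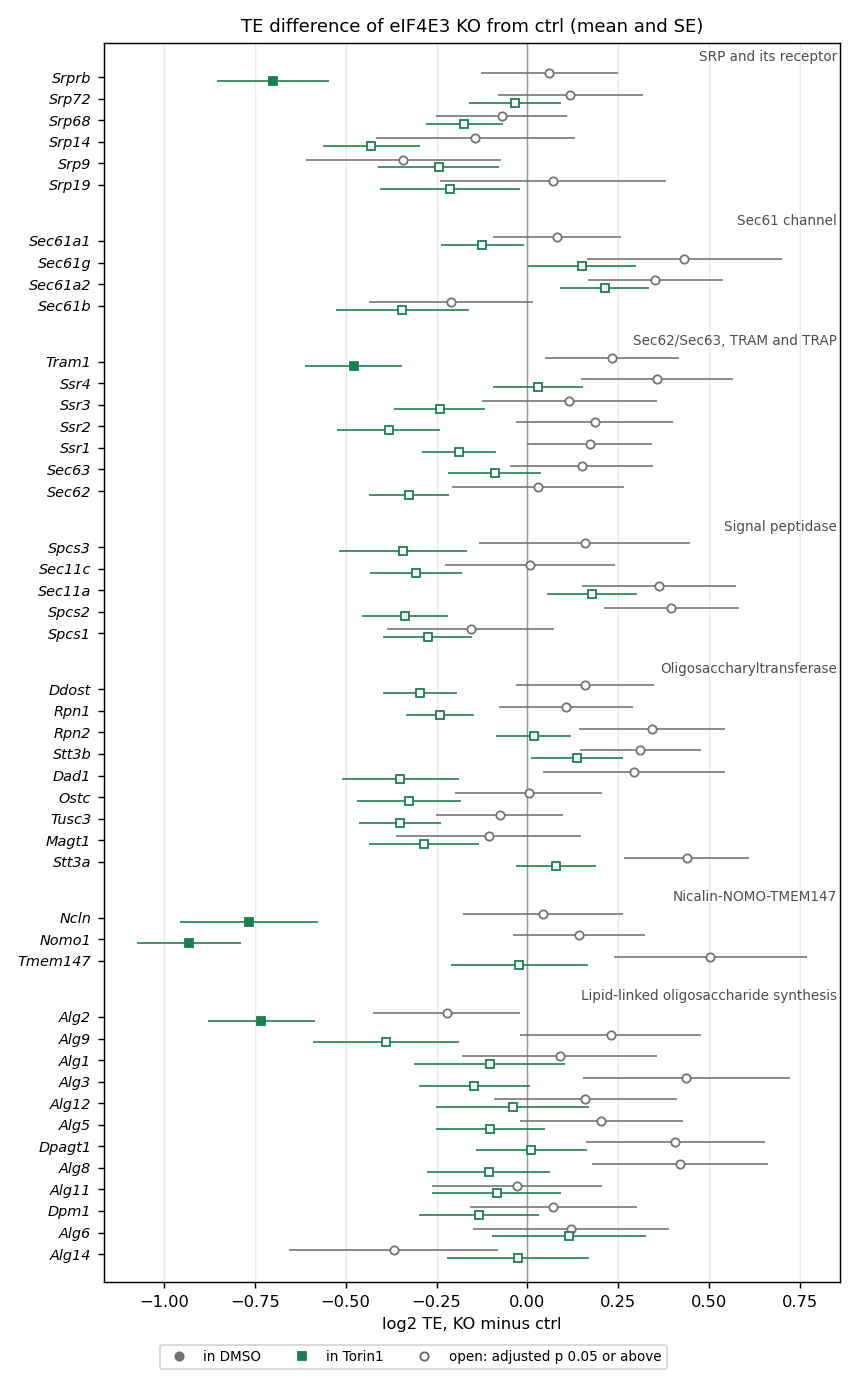
Log2 TE difference of KO from ctrl for the 46 transcripts by role, in DMSO (circles) and in Torin1 (squares), with the SE of the fitted difference, filled where the adjusted p was under 0.05. No DMSO point is filled, and the 5 filled Torin1 points are Nomo1 (-0.93), Ncln (-0.77), Alg2 (-0.73), Srprb (-0.70) and Tram1 (-0.48).

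Nomo1 had the largest difference. It was lower in KO, with log2 differences of -1.03 ± 0.14 in footprints (edgeR adjusted p = 2.67e-06) and -0.93 ± 0.14 in TE (edgeR adjusted p = 0.000314), and both calls were made whichever library was left out. Alg2 was lower, at -0.64 ± 0.14 in footprints (edgeR adjusted p = 0.00432) and -0.73 ± 0.15 in TE (edgeR adjusted p = 0.00551), also whichever library was left out. Srprb was lower, at -0.72 ± 0.15 in footprints (edgeR adjusted p = 0.00127) and -0.70 ± 0.15 in TE (edgeR adjusted p = 0.0110), where the TE difference without ribo-seq KO Torin1 replicate 2 was -0.61 and did not pass.

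Ncln was lower, at -0.85 ± 0.20 in footprints (edgeR adjusted p = 0.00622) and -0.77 ± 0.19 in TE (edgeR adjusted p = 0.0228). Its footprint call was lost without KO Torin1 replicate 1 (-0.69) or replicate 2 (-0.78), and its TE call without ribo-seq ctrl Torin1 replicate 1 (-0.71), KO Torin1 replicate 1 (-0.61) or KO Torin1 replicate 2 (-0.70). Ssr2 was lower in footprints, at -0.48 ± 0.12 (edgeR adjusted p = 0.0117), but not without ctrl Torin1 replicate 2 (-0.39) or KO Torin1 replicate 1 (-0.38). Ddost was lower in footprints, at -0.33 ± 0.10 (edgeR adjusted p = 0.0435), and this passed only when KO Torin1 replicate 3 was the library left out (-0.38). Tram1 was lower in TE, at -0.48 ± 0.13 (edgeR adjusted p = 0.0465), a call kept in 2 of 12 runs that left out a library, and lost with DESeq2's size factors in edgeR (-0.47). The members called in TE numbered 2 without ribo-seq KO Torin1 replicate 2 and 3 without ribo-seq ctrl Torin1 replicate 1 or ribo-seq KO Torin1 replicate 1. In footprints they numbered 3 without KO Torin1 replicate 1.

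Whether the Torin1 response differed between ctrl and KO was tested as an interaction over all 4 conditions. In footprints Nomo1 alone of the 46 passed, with a log2 difference between the responses of -1.12 ± 0.20 (edgeR adjusted p = 0.00567), where 0.114% of all transcripts passed. Without KO Torin1 replicate 1 the Nomo1 interaction was -0.98 and did not pass. An unadjusted p under 0.05 was found in footprints for 10 of the 46, against 730 of 10563 transcripts. In footprints 43 of 46 interactions were below 0, against 52.6% of all transcripts, with a median of -0.27 against -0.02. In TE 43 of 46 were below 0, against 51.2%, with a median of -0.32 against -0.01. The 46 share the same libraries, so these signs are not independent of each other. In TE 0 of 46 passed, where 0.0% of all did, and DESeq2 called 1, Nomo1. An unadjusted p under 0.05 was found in TE for 8 of the 46, against 594 of 10376 transcripts. In mRNA 0 of 46 passed, where 0.0% of all did, with 0 calls by DESeq2. An unadjusted p under 0.05 was found in mRNA for 0 of the 46, against 108 of 11072 transcripts. For Srprb, Tram1, Ncln and Alg2 the footprint interactions were -0.68, -0.63, -0.77 and -0.60, and none passed. The interaction includes the KO against ctrl difference in DMSO, which for footprints of the 46 had a median of 0.11.

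Neighbouring genes of the pathway were taken from 3 other lists. Of 20 further targeting and translocon genes, 9 fell and 3 rose in TE with Torin1 in KO, with a median log2 change of -0.38, against a median of -0.08 in ctrl. Of 20 genes for glycan assembly and sugar donors, 4 fell in KO and 1 in ctrl, with a median of -0.19 in KO. Of 9 genes for early glycan trimming and quality control, 6 fell in KO and 2 in ctrl, with a median of -0.77 in KO. The median of all transcripts was -0.01 in both genotypes. Of them, 17.8% were lower and 10.5% higher in KO, and 4.32% lower and 0.393% higher in ctrl. The counts of lower genes for glycan assembly and sugar donors were near those shares. In TE of KO against ctrl in Torin1, 2, 0 and 2 genes of these lists were lower and none higher, against 2.46% of all transcripts lower and 0.533% higher. Get4 (-0.42), a targeting factor for tail-anchored proteins, and Krtcap2 (-0.57), an oligosaccharyltransferase subunit, were in the first list. Ganab (-0.88), the catalytic subunit of glucosidase II, and Man1b1 (-0.74), an ER mannosidase, were in the last. Like Nomo1, Ganab passed the footprint interaction of genotype and treatment, at -0.97 ± 0.18 (edgeR adjusted p = 0.00798). No other gene of the 3 lists passed it, and without KO Torin1 replicate 1 no transcript did.

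Transcript features of the group were read from the annotation. From the GENCODE M21 annotation of GRCm38, 45 of the 46 matched. Their 5′ leaders had a median length of 111 nt against 172 nt for 10365 transcripts, with a middle range of 74 to 178 nt against 94 to 297 nt. Their leaders had a median GC content of 68.9% against 65.2%, and their CDS a median length of 1122 nt against 1383 nt. Annotated starts with a C followed by 4 pyrimidines, the start of a TOP-like motif, were found in 3 of 45, Srp72, Alg9 and Dpm1, or 6.67% against 2.25%. The leaders of Nomo1, Ncln, Alg2, Srprb and Tram1 were 134, 129, 47, 78 and 188 nt long. Across the 45 members, the TE change with Torin1 in KO had a Spearman rho of -0.09 with leader length, -0.32 with CDS length and -0.42 with leader GC content, and Pearson's r was -0.10, -0.41 and -0.40. For the TE difference of KO from ctrl in Torin1, rho was 0.05, 0.20 and -0.08, and r was 0.04, 0.01 and -0.15. These are descriptions over transcripts that share libraries and depth, and the annotated starts were not checked in N2a cells. No such correlation over all transcripts is given, so these values do not show a trait particular to the group.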

How the data were processed

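RNA-seq and ribo-seq of 4 conditions of N2a cells were analysed from deposited tables of raw counts per coding sequence. The authors made these counts by mapping reads to mm10 with HISAT2 and to canonical Ensembl transcripts with Bowtie2, and by counting mRNA reads or ribosome P-sites, with no normalization. Tool versions and the use of strand in counting are not given in the sources used here. Columns with the authors' own fold changes and p-values, and their tables of TE comparisons, were not used. Labels and column headers gave each library its group, and in the RNA-seq table of the DMSO libraries some columns give a group without a replicate number.

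Every transcript that exceeded 1 CPM in each replicate of 1 or more conditions was tested over the whole table with edgeR 4.0.16 in R 4.3.3 (glmQLFit and glmQLFTest, TMM), on each pair of conditions, and was called at a Benjamini-Hochberg adjusted p under 0.05. TE was the assay by condition term of a model over both assays, with TMM within each assay. SE is the absolute log2 change divided by the square root of F. CPM values printed per library are scaled by TMM. The script was tested on simulated data. Alternatives were the replicate number as a block, DESeq2's size factors in edgeR, no scaling beyond library size, DESeq2 1.42.0, no filter, and leaving out each library. Per the labels each replicate number is a different passage, so the numbers pair libraries, but the main tests used no block. Deviations of same-numbered libraries correlated at 0.04 to 0.74 in RNA-seq and at -0.04 to 0.14 in ribo-seq. Those of differently numbered libraries correlated at -0.59 to 0.43 in RNA-seq and at -0.14 to 0.12 in ribo-seq. P-values measure the spread between passages of the same cells.

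Members and gene lists were chosen with earlier results of these data known. Values in every library are given for members called in footprints or TE of KO against ctrl in Torin1, for the called member with the largest TE fall with Torin1 in KO in each role group, and for paralog pairs. Other members are given by role, and genes outside the 46 are named where called in TE of KO against ctrl in Torin1. Members whose CDS overlaps another annotated gene are uncertain: Srprb and Dpm1 on the same strand, and Alg1, Alg9, Rpn2, Sec11a, Sec61a2, Sec62, Sec63 and Spcs3 on the opposite strand.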

Additional observations from a re-analysis of the deposited data

Results flagged for a closer look

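The footprint response of Nomo1 to Torin1 differed between the genotypes by the interaction test, with a log2 difference of -1.12 ± 0.20 (edgeR adjusted p = 0.00567). Nomo1 footprints fell, with a log2 change of -1.61 in ctrl, from 362 and 394 CPM to 117 to 128 CPM, and -2.75 in KO, from 392 to 408 CPM to 48.9 to 72.6 CPM. The mRNA changes were -0.13 and -0.19, and neither passed. Over the libraries left out the footprint difference was -1.26 to -0.98, and it did not pass without KO Torin1 replicate 1. The TE interaction of Nomo1, at -1.07 ± 0.23, did not pass (edgeR adjusted p = 0.171).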

How the results depend on the processing

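With the replicate block, members called in mRNA numbered 4 for Torin1 in ctrl, 3 for Torin1 in KO, 2 for KO in DMSO and 2 for KO in Torin1, and in TE 8 for KO in Torin1. The block changed no call of a member other than those given beside the results. DESeq2 called 2 members in mRNA for Torin1 in each genotype, 9 in TE for KO in Torin1 and 1 in the TE interaction. For mRNA of KO in Torin1 the count was 0 without scaling and 0 without the filter, and for footprints of Torin1 in ctrl it was 12 without scaling. Leaving out 1 library gave 0 to 8 members in mRNA for Torin1 in ctrl, 0 to 3 for Torin1 in KO and 0 for KO in Torin1. It gave 8 to 24 in footprints and 7 to 10 in TE for Torin1 in ctrl, 29 to 33 and 27 to 32 in KO, 3 to 6 and 2 to 7 for KO in Torin1, and 0 to 1 in the footprint interaction. Of 106 member calls, 27 were lost without scaling, 8 with DESeq2, 3 without the filter, 1 with DESeq2's size factors and 1 with the block, and none changed sign in these runs. Over the libraries left out the footprint ratio changes were -1.25 to -1.04 for Sec61a1, -1.05 to -0.93 for Stt3b, -0.47 to -0.39 for Tusc3 and -0.38 to -0.09 for Sec11c.

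Counts over all transcripts moved by more than 1.5 times between settings as follows. In mRNA, Torin1 in ctrl had 299 calls, against 1331 with the block and 723 with DESeq2, and Torin1 in KO 1097, against 1797 with the block. KO in DMSO had 2, against 866 with the block, 21 with DESeq2, 4 without the filter and 0 without scaling, and KO in Torin1 216, against 1040 with the block and 342 with DESeq2. In footprints DESeq2 gave 956 in place of 1670 for Torin1 in ctrl and 422 in place of 651 for KO in Torin1, and the interaction had 12, against 35 with the block and 38 with DESeq2. In TE, KO in Torin1 had 314, against 549 with the block and 505 with DESeq2, and the interaction 0, against 17 with DESeq2. Single libraries moved these counts too. In mRNA, Torin1 in ctrl had 1465 without ctrl DMSO replicate 3 and 114 to 146 without ctrl DMSO replicate 1 or any ctrl Torin1 library, and Torin1 in KO 438 to 579 without KO DMSO replicate 1 or any KO Torin1 library. KO in Torin1 had 6 without ctrl Torin1 replicate 3 and 38 to 116 without ctrl Torin1 replicate 1 or any KO Torin1 library, and KO in DMSO 0 to 10. In footprints, KO in Torin1 had 344 without KO Torin1 replicate 2, 424 without KO Torin1 replicate 1 and 417 without ctrl Torin1 replicate 1, and KO in DMSO 1 or 2 in place of 3. The footprint interaction had 0 without KO Torin1 replicate 1, 5 without KO Torin1 replicate 2, 7 without ctrl Torin1 replicate 3, 50 without ctrl DMSO replicate 1 and 21 without ctrl DMSO replicate 3. In TE, Torin1 in ctrl had 492, against 316 without ribo-seq ctrl DMSO replicate 1, 327 without ribo-seq ctrl Torin1 replicate 2 and 817 without RNA-seq ctrl DMSO replicate 2. KO in Torin1 had 171 without ribo-seq KO Torin1 replicate 2, 208 without ribo-seq KO Torin1 replicate 1 and 200 without RNA-seq KO Torin1 replicate 1. The 2 ctrl DMSO ribo-seq libraries, 1 of them the shallowest, limit the comparisons that use them.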
